A study of Mus musculus with 6 samples.

Results

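The BCL2 family decides whether a cell keeps its mitochondria intact or releases the factors that start apoptosis. The members described here are the pro-survival genes Bcl2, Bcl2l1, Mcl1 and Bcl2a1, the BH3-only genes Bcl2l11, Bbc3, Bmf, Bid and Pmaip1, and the effector gene Bak1. They were chosen by name: a row of the deposited array table was a member when the platform annotation gave exactly 1 of the chosen symbols, or several symbols that all start with Bcl2a1. This gave 12 features of 10 genes among 24743 features on the array. Bax, the other effector named, was not analysed here because no row met the rule for it.

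The proteins of this family share short BH domains through which they bind each other. BCL2, BCL-XL (from Bcl2l1), MCL1 and A1 (from Bcl2a1) hold the effectors BAX and BAK in check, and the BH3-only proteins bind the pro-survival members or the effectors and so favour death. In B cells, A1 and BCL-XL are known as genes induced by NF-kB after stimulation through CD40, the antigen receptor or Toll-like receptors, and BIM (from Bcl2l11) is a main death signal when a B cell loses its survival stimulus.

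RNA came from mature splenic B cells of mice, which were activated in culture, infected with a retrovirus and sorted for EGFP. Controls (EV) carried the empty GFP vector, and the other groups carried IKK K171E (IKK_K171E) or MYD88 L265P (MYD88_L265P), a substitution found in human B cell lymphomas. After infection all cells were kept with mitogen for 36 hours, washed, and cultured for 24 hours without mitogen (without anti-CD40), so all groups were read after a stimulus had been withdrawn. Each of the 3 groups had 2 arrays, called biological replicates in the labels, which do not say whether the animals or cultures were separate, so p-values measure the spread between these samples. The labels give no strain, age or sex of the mice, and they name the kinase IKK without a subunit. Each construct was forced from a retroviral vector in cells that had been activated in culture, and the expression of infected cells that did not pass the sort is not part of the data.

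All values are log2 signals per feature as deposited, and a difference is a log2 fold change between group means. A feature was called when its limma p-value, adjusted by Benjamini-Hochberg over the 21545 features fitted, was below 0.05. Replicate arrays correlated across these features at 0.989 to 0.995, and arrays of different groups at 0.967 to 0.990. The label check was Myd88, which read 12.25 and 12.31 in MYD88_L265P against 9.14 to 9.43 on the other 4 arrays. Ikbkb, the gene of IKK beta, read 11.35 and 10.68 in IKK_K171E and 9.98 and 10.22 in EV, a difference that was not called (adjusted p = 0.0844). In MYD88_L265P it read 9.69 and 9.68, and it was called lower there than in IKK_K171E (-1.33, adjusted p = 0.0305), a call that ended without IKK_K171E replicate 1 or either MYD88_L265P array (0.0574 to 0.222). Mature B cell markers had a mean log2 signal over 9 marker genes of 11.56 and 11.77 in EV, 11.42 and 11.49 in IKK_K171E, and 10.90 and 10.87 in MYD88_L265P. Of these 9 genes 6 were called lower in MYD88_L265P against EV (list median -0.67), and 1 in IKK_K171E against EV. Over all genes 7.45% and 0.434% were called lower in these comparisons. The array has no detection p-values here, and all 12 member features had a mean signal above the lowest 25% of features. In bulk samples like these, fewer cells of a type and less RNA per cell cannot be told apart.

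The comparison of IKK_K171E with EV asks how this family differed between these groups of sorted cells. Bcl2a1 and Bid rose, Bcl2l11 fell, and the other 7 genes were not called. Bcl2a1, the pro-survival gene, was 1.66-fold to 1.73-fold higher over its 3 features. Bid, which carries the death receptor signal to the mitochondria, was 1.79-fold higher, and Bcl2l11, which encodes the death inducer BIM, was 1.76-fold lower. Of the 12 member features 4 were called higher and 1 lower, against 1.40% of all features called in this comparison (0.989% higher and 0.413% lower). The 3 Bcl2a1 features among them carry the same gene copies, so the calls stand for 3 of 10 genes. Members were chosen with earlier results of these data known, so the shares are given as a description only. The median log2 fold change was 0.095 over the members and -0.036 over all features. In MYD88_L265P against EV 0 of the 12 features were called by limma after adjustment, and 16.6% of all features were (9.32% higher and 7.33% lower). So few features cannot set the family apart from this share. Of the 12, 3 had an unadjusted p below 0.05, and Bcl2l11 had an adjusted p of 0.0587.

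**Figure D1:**
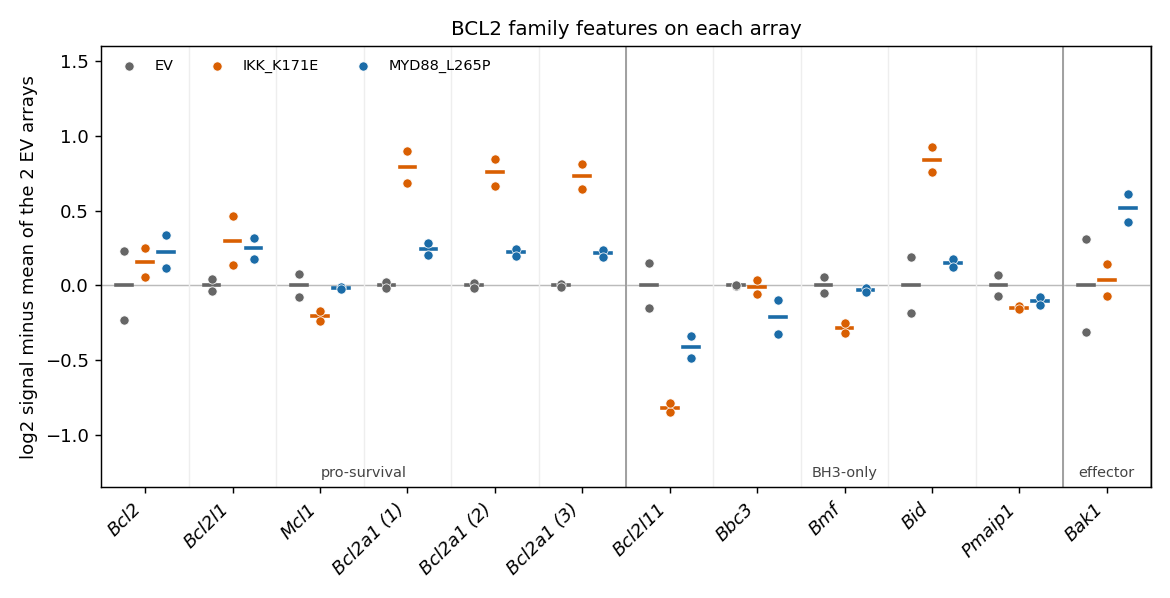
Each point is 1 array, plotted as its log2 signal minus the mean of the 2 EV arrays for that feature, and short bars are group means of 2 arrays. The IKK_K171E arrays stand above all others for the 3 Bcl2a1 features and Bid and below all others for Bcl2l11, and the EV arrays of Bak1 lie far apart (10.26 and 9.65).

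Bcl2a1 was measured by 3 features, each annotated with the same 4 gene copies, Bcl2a1a, Bcl2a1b, Bcl2a1c and Bcl2a1d. They cannot be read as separate genes, and on no array did they differ by more than 0.076 in log2 signal. In the RefSeq table (GRCm38.p6) all 4 copies lie on chromosome 9. In local alignments of their 300-base start windows, Bcl2a1a and Bcl2a1b were identical at 99.2% of 256 aligned columns and Bcl2a1a and Bcl2a1d at 96.0% of 300. Bcl2a1c aligned over fewer columns, at 95.8% of 190 with Bcl2a1a, 95.7% of 234 with Bcl2a1b and 93.2% of 190 with Bcl2a1d. The 250 bases before the start are shown for these 3 copies to let the likeness be seen, at chr9:88956670-88956919 (plus strand), chr9:89199023-89199272 (plus strand) and chr9:88731851-88732100 (minus strand), written 5′ to 3′. Capitals, found in Bcl2a1b alone, mark the letters TGATGNAA. The annotated start of Bcl2a1b lies further downstream, so its window begins later in the shared sequence.
Bcl2a1a: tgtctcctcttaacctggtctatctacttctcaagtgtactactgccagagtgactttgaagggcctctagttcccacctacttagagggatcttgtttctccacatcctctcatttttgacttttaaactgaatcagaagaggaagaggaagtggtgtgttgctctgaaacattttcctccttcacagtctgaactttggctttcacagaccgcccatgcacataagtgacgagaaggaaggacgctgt
Bcl2a1b: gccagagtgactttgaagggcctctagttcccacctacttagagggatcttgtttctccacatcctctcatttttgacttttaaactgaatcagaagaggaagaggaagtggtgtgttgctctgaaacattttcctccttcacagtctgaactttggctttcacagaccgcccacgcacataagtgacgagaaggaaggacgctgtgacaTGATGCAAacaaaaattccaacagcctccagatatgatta
Bcl2a1d: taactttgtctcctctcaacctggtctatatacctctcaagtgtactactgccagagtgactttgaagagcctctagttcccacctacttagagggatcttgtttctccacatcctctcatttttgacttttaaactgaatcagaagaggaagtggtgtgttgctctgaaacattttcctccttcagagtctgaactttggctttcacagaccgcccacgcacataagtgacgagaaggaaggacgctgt

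The first Bcl2a1 feature read 11.47 and 11.43 in EV, 12.35 and 12.13 in IKK_K171E, and 11.73 and 11.65 in MYD88_L265P. The groups did not overlap in any pairing, and IKK_K171E was highest and EV lowest. The rise in IKK_K171E over EV was 0.79 (SE 0.10, 95% confidence interval 0.55 to 1.03, adjusted p = 0.0254), and the other features gave 0.75 (adjusted p = 0.0241) and 0.73 (adjusted p = 0.0248). In MYD88_L265P the same features stood 0.21 to 0.24 above EV and were not called (adjusted p = 0.128 to 0.139). The direct difference, MYD88_L265P minus IKK_K171E, was -0.55, -0.53 and -0.52. It was called for the features at -0.53 and -0.52 (adjusted p = 0.0454 and 0.0483) and missed for the other (adjusted p = 0.0525). The other feature was called as well with the replicate block (adjusted p = 0.0400), quantile normalization (0.0314), an intensity trend (0.0376), array weights (0.0411) and low signals left out (0.0463). No Bcl2a1 feature was called with all arrays shifted to a common median (0.0698 to 0.0792) or with all features of the table (0.0608 to 0.0694). The calls at -0.53 and -0.52 also ended when either array of IKK_K171E or MYD88_L265P was left out (adjusted p = 0.0998 to 0.341), and the feature at -0.52 lost it with only the 4 arrays compared and without either EV array (0.0506 in each case). A further feature annotated with Bcl2a1c alone, which the rule left out, read 8.76 and 8.66 in EV, 9.68 and 9.46 in IKK_K171E, and 9.23 and 9.09 in MYD88_L265P. It was called higher in IKK_K171E (0.86, SE 0.11, adjusted p = 0.0248) and in MYD88_L265P (0.45, SE 0.11, adjusted p = 0.0363). The call in MYD88_L265P ended when either array of EV or MYD88_L265P was left out (adjusted p = 0.0583 to 0.183). The call in IKK_K171E ended with only the 4 arrays compared and without EV replicate 2, IKK_K171E replicate 1 or either MYD88_L265P array (0.0701 to 0.154).

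Bcl2l1, the gene of BCL-XL, read 8.81 and 8.73 in EV, 9.23 and 8.90 in IKK_K171E, and 9.08 and 8.95 in MYD88_L265P. Both EV arrays were lowest, while the other groups overlapped each other. Its log2 fold change over EV was 0.30 (95% confidence interval 0.0010 to 0.60) in IKK_K171E and 0.25 (-0.05 to 0.54) in MYD88_L265P, with adjusted p = 0.291 and 0.186. The value in IKK_K171E was 0.13 without IKK_K171E replicate 1 and 0.46 without replicate 2. Mcl1, whose short-lived protein mature B cells depend on, read 11.84 and 11.68 in EV, 11.59 and 11.52 in IKK_K171E, and 11.75 and 11.74 in MYD88_L265P. The IKK_K171E arrays were the lowest of the 6, with a difference from EV of -0.20 that was not called (95% confidence interval -0.42 to 0.01, adjusted p = 0.323). Bcl2, the founding member of the family, read 9.77 and 10.24 in EV, 10.06 and 10.26 in IKK_K171E and 10.12 and 10.34 in MYD88_L265P. The EV arrays overlapped with those of both other groups, and neither difference from EV (0.15 and 0.23) was called. Thus Bcl2a1 was the only one of the 4 measured pro-survival genes called in any of the 3 comparisons.

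Among the BH3-only genes, Bcl2l11 read 10.04 and 10.35 in EV, 9.35 and 9.41 in IKK_K171E, and 9.71 and 9.86 in MYD88_L265P. The 3 groups did not overlap, with EV highest and IKK_K171E lowest. It fell by 0.82 in IKK_K171E (SE 0.12, adjusted p = 0.0366). In MYD88_L265P the difference from EV was -0.41 (SE 0.12, 95% confidence interval -0.70 to -0.13, adjusted p = 0.0587) and missed the threshold with all 6 arrays. It passed with the replicate block (adjusted p = 0.0335), quantile normalization (0.0341), array weights (0.0439) and without EV replicate 1 (0.0274). It was smaller without EV replicate 2 (-0.26, adjusted p = 0.209), without MYD88_L265P replicate 1 (-0.34, 0.242) and with a common median (-0.32, 0.129), and it also missed without MYD88_L265P replicate 2 (-0.49, 0.151). The difference between the constructs was 0.40 (adjusted p = 0.158). The 250 bases before the upstream Bcl2l11 start, chr2:128125788-128126037 on the plus strand, are shown because they hold the letters GTAAACA (in capitals), the core of the site bound by FOXO factors, which are known regulators of this gene.
Bcl2l11: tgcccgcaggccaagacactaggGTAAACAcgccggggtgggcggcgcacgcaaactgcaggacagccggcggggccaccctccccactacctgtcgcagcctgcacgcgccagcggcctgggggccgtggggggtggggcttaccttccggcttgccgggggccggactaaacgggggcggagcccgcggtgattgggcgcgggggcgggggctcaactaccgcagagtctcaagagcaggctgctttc

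Bid, whose protein is cleaved by caspase-8 and then acts on BAX and BAK, read 8.97 and 9.34 in EV, 10.08 and 9.91 in IKK_K171E, and 9.33 and 9.28 in MYD88_L265P. The IKK_K171E arrays were above the other 4, and the MYD88_L265P arrays lay between those of EV. It rose by 0.84 in IKK_K171E over EV (SE 0.14, 95% confidence interval 0.52 to 1.16, adjusted p = 0.0408). In MYD88_L265P minus EV the value was 0.15 (adjusted p = 0.430), and MYD88_L265P minus IKK_K171E was -0.69 (95% confidence interval -1.01 to -0.37, adjusted p = 0.0614). The latter passed with quantile normalization (adjusted p = 0.0459) and array weights (0.0449). It also passed with only the 4 arrays compared (0.0227), the same result as without either EV array. It missed with the replicate block (0.0640), a common median (0.0839) and when either array of IKK_K171E or MYD88_L265P was left out (0.136 to 0.361). The window before the Bid start, chr6:120916825-120917074 on the minus strand, held none of the motifs searched and is given for comparison with Bcl2a1, the other gene that rose.
Bid: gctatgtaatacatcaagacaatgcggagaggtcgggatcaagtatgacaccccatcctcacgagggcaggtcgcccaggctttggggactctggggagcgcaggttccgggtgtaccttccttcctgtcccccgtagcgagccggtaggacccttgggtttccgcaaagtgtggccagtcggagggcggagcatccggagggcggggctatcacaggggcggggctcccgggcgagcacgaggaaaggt

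The calls in IKK_K171E against EV rest on few arrays. Without IKK_K171E replicate 1, 0 features of the whole table were called by limma after adjustment (2359 had an unadjusted p below 0.05), and the log2 fold changes were 0.65 to 0.68 for Bcl2a1 (adjusted p = 0.152 to 0.154), -0.79 for Bcl2l11 (0.217) and 0.75 for Bid (0.245). Bcl2a1 and Bcl2l11 also lost the call without EV replicate 2 (adjusted p = 0.0667 to 0.0722 and 0.0817), Bcl2l11 and Bid without IKK_K171E replicate 2 (0.0616 and 0.0588), and Bid without EV replicate 1 (0.0504). All 3 genes lost it without either MYD88_L265P array, where the values stay as they are and only the estimate of the spread changes (adjusted p = 0.0744 to 0.102). Bcl2l11 and Bid further missed the threshold with array weights (adjusted p = 0.0543 and 0.0587) and with all features of the table (0.0529 and 0.0590), and the direction stayed in each of these cases.

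The other BH3-only genes were not called in any comparison. Bmf, whose protein is held at myosin motors in healthy cells, read 8.77 and 8.87 in EV, 8.50 and 8.57 in IKK_K171E, and 8.80 and 8.77 in MYD88_L265P. The IKK_K171E arrays were lowest (IKK_K171E minus EV -0.29, 95% confidence interval -0.49 to -0.08, adjusted p = 0.162). Bbc3, which encodes PUMA, a p53 target, read 7.86 on both EV arrays, 7.80 and 7.89 in IKK_K171E, and 7.53 and 7.76 in MYD88_L265P. Its difference from EV was -0.01 in IKK_K171E and -0.21 in MYD88_L265P (95% confidence interval -0.46 to 0.04, adjusted p = 0.178). The latter was -0.095 without MYD88_L265P replicate 1, -0.33 without replicate 2 and -0.097 with quantile normalization. Pmaip1, which encodes NOXA, the partner that marks MCL1 for degradation, read 9.11 and 8.97 in EV, 8.90 and 8.88 in IKK_K171E and 8.96 and 8.91 in MYD88_L265P. Both constructs lay below both EV arrays by small amounts (-0.15 and -0.10, adjusted p = 0.462 and 0.411).

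Bak1, the effector that forms pores in the outer mitochondrial membrane, read 10.26 and 9.65 in EV, 10.09 and 9.89 in IKK_K171E, and 10.38 and 10.57 in MYD88_L265P. The MYD88_L265P arrays were the highest, but the EV arrays differed by more than any other pair of replicates among the members. MYD88_L265P minus EV was 0.52 (SE 0.20, 95% confidence interval 0.05 to 0.98, adjusted p = 0.103), and it was called without EV replicate 1 (0.83, adjusted p = 0.0141) but not without EV replicate 2 (adjusted p = 0.353). IKK_K171E minus EV was 0.04 (95% confidence interval -0.43 to 0.50), so a change of the size seen for Bcl2a1 lies outside this interval.

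**Figure D2:**
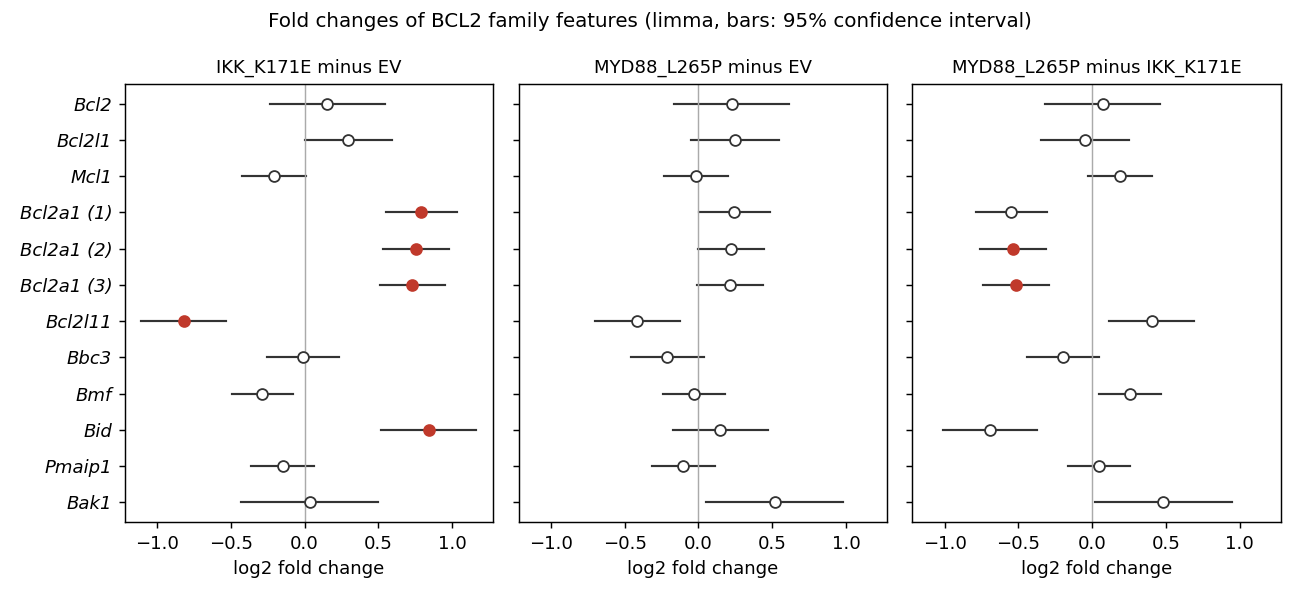
Points are log2 fold changes of the 12 member features in the 3 comparisons, bars are 95% confidence intervals from the limma fit, and filled points passed an adjusted p of 0.05. Filled points are the Bcl2a1 features, Bcl2l11 and Bid in IKK_K171E minus EV and 2 of the 3 Bcl2a1 features in MYD88_L265P minus IKK_K171E, with 0 filled points in MYD88_L265P minus EV.

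Set against each other directly, the constructs differed in 2 of 12 member features, both of Bcl2a1 and both lower in MYD88_L265P, where 1.76% of all features were called (0.877% higher and 0.887% lower). Both comparisons with EV share its arrays, so their values are only given side by side. Bcl2a1 stood at 0.73 to 0.79 in IKK_K171E and 0.21 to 0.24 in MYD88_L265P, Bcl2l11 at -0.82 and -0.41, Bid at 0.84 and 0.15, Bak1 at 0.04 and 0.52, and Bmf at -0.29 and -0.03. Array groups did not overlap for 9 of 12 member features in IKK_K171E against EV (46.0% of all features), 8 in MYD88_L265P against EV (71.1%) and 10 in MYD88_L265P against IKK_K171E (57.0%). The median feature of the array lay 0.11 lower in MYD88_L265P than in EV. A common median brought this to -0.02, and with it Mcl1 and Bmf changed from -0.02 and -0.03 to 0.071 and 0.058 in that comparison. It also moved the share of higher calls over all features from 56.0% to 77.8% there and from 49.7% to 66.4% in MYD88_L265P minus IKK_K171E.

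Promoter windows of RefSeq (GRCm38.p6), 250 bases before to 50 after each start, were searched on both strands for 4 motifs in 19 windows of 12 genes, with the Bcl2a1 copies counted separately and Pmaip1 left out. The NF-kB consensus was found in 4.51% of all 32851 windows of this length, and among the members in a window of Bcl2l1 (at -242), of Bmf (at 1) and of Bbc3 (3 overlapping matches from -137), and in none of the 4 Bcl2a1 windows. GTAAACA was found in 3.65% of all windows, in a Bcl2l11 window (bases -227 to -221) and in a Bbc3 window (-167 to -161, on the other strand). TGATGNAA, the element shared by C/EBP and ATF factors, was found in 3.97% of all windows and in all 4 Bcl2a1 windows, at bases 5 to 12 after the start in Bcl2a1a and Bcl2a1d and at -40 to -33 in Bcl2a1b. These copies share their sequence and are not separate observations. CACGTG, the E-box bound by MYC, was in 7.15% of all windows and in a window of Bbc3. These matches describe letters only.

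Around the family, 6 lists of apoptosis genes were counted, each gene by its brightest feature. In IKK_K171E against EV 2 of their 72 measured genes were called, both higher, against 1.43% of all genes (0.994% higher and 0.434% lower). Cycs, which encodes the cytochrome c that is set free when BAX or BAK open the mitochondrion, rose by 0.85 (SE 0.15, adjusted p = 0.0473), from 10.72 and 10.40 in EV to 11.58 and 11.24. Fas, the death receptor whose caspase-8 cleaves BID, rose by 0.58 (SE 0.09, adjusted p = 0.0393), from 10.36 and 10.39 to 10.97 and 10.95. Both calls ended with array weights, all features of the table and only the 4 arrays compared (adjusted p = 0.0546 to 0.114). The Fas call also ended with each array left out in turn (0.0631 to 0.213), and the Cycs call with a common median (0.0503) and without EV replicate 2, IKK_K171E replicate 1 or either MYD88_L265P array (0.114 to 0.245). In the list of death receptor input to BID this was 1 of 8 genes, with 0 lower and a list median of 0.12. In the list of apoptosome, caspases and mitochondrial release Cycs was 1 of 14 (median 0.06). The lists of other BCL2 family genes (15), inhibitors of apoptosis (8), partners and turnover of MCL1, BIM and BMF (11) and transcription factors (16) had 0 called by limma.

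In MYD88_L265P against EV, where 16.5% of all genes were called (9.02% higher and 7.45% lower), 12 of the same 72 genes were called (16.7%), a share near that of all genes. Of 14 genes of the apoptosome and release list 3 rose and 1 fell. Cycs rose by 1.37 (SE 0.15, adjusted p = 0.00468), to 11.90 and 11.95, a call kept under every array left out. Aifm1, a flavoprotein of the mitochondrial intermembrane space, rose by 0.53 and Vdac3, a channel of the outer membrane, by 0.52. Casp9, the initiator caspase of the apoptosome, fell by 0.42 (adjusted p = 0.0282) and is named after its value was seen. Of 8 genes placed in the inhibitor of apoptosis list 2 fell, Birc2 (cIAP1) by 0.60 and Naip5 by 0.53. The calls of Casp9 and Naip5 ended with a common median (adjusted p = 0.0591 and 0.0624), that of Naip5 also with only the 4 arrays compared (0.0526) and that of Aifm1 with quantile normalization (0.0501). Fas was the 1 of 8 death receptor genes called, and it fell by 0.76 (SE 0.09, adjusted p = 0.00578), to 9.69 and 9.54.

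Of 11 partner and turnover genes 3 rose in MYD88_L265P against EV: Mapk8, the kinase JNK1 that phosphorylates BIM and BMF, by 0.65, Mtch2, the BID receptor of mitochondria, by 0.50 and Bag3, a co-chaperone, by 0.34, a call that ended with only the 4 arrays compared (adjusted p = 0.0507). Bcl2l15 was the 1 of 15 other BCL2 family genes called (0.56, adjusted p = 0.0250). Rel, the NF-kB subunit of activated B cells, was the 1 of 16 transcription factors called and fell by 0.60 (adjusted p = 0.0292). Of the 12 genes named here for MYD88_L265P against EV, only Cycs kept the call with each array left out in turn. The others, Fas aside, lost it when either MYD88_L265P array was left out, and the Fas call ended only without MYD88_L265P replicate 2. Aifm1, Bag3, Bcl2l15, Casp9, Mtch2, Naip5, Rel and Vdac3 also lost it without EV replicate 2, and Aifm1 and Bag3 without EV replicate 1. Bag3 and Naip5 further lost it without either IKK_K171E array.

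Directly compared, MYD88_L265P was lower than IKK_K171E in Fas (-1.34, adjusted p = 0.00340), Birc2 (-0.86, adjusted p = 0.0196) and Nfkb2 (-0.65, adjusted p = 0.0254), and 0 pathway genes were higher by limma, where 1.81% of all genes were called (0.908% higher and 0.903% lower). Fas read 10.97 and 10.95 in IKK_K171E, 10.36 and 10.39 in EV and 9.69 and 9.54 in MYD88_L265P, with the EV arrays between those of the constructs. Markers of T cells, which also express Fas, had a mean log2 signal over 8 genes in the same order of groups: 8.18 and 8.05 in IKK_K171E, 7.92 and 7.96 in EV, and 7.66 and 7.53 in MYD88_L265P. Of these 8 genes 0 were called by limma in IKK_K171E against EV. In MYD88_L265P 3 were called lower against EV and 2 against IKK_K171E, and of 8 NK cell markers 2 and 1 were. Over all genes 7.45% and 0.903% were called lower in these comparisons. The part of T and NK cells in the values of Fas was not tested. Its difference was called with each array left out in turn, while Birc2 and Nfkb2 lost the call when either array of IKK_K171E or MYD88_L265P was left out.

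**Figure D3:**
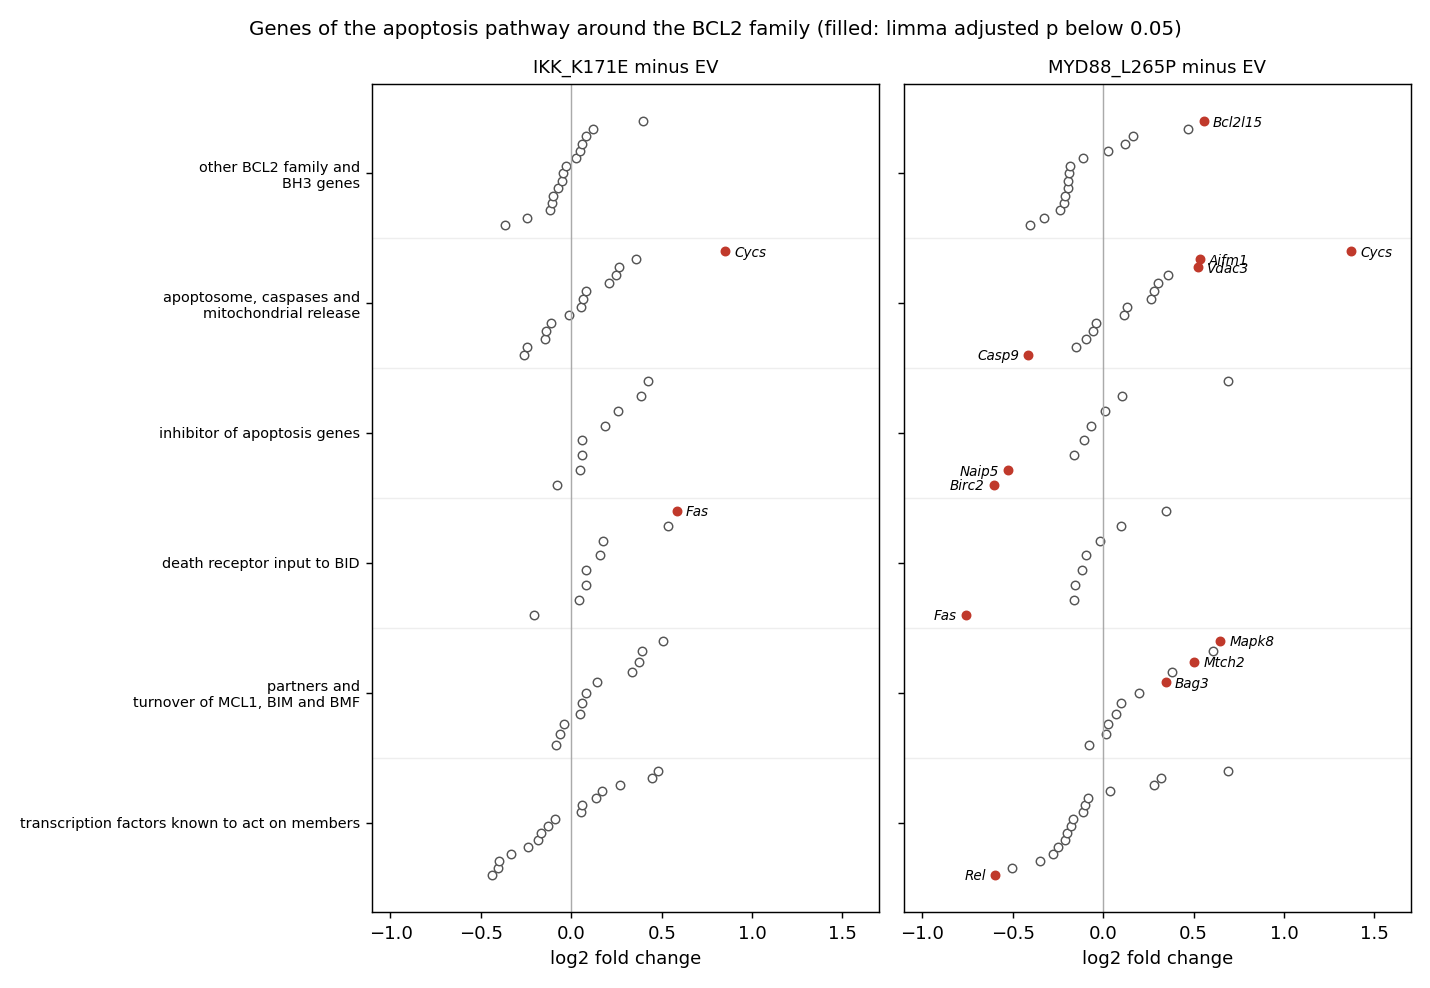
Each point is a gene of 6 apoptosis lists, placed by its log2 fold change over EV and spread vertically within its list by rank, and filled points passed a limma adjusted p of 0.05. Cycs is filled at 0.85 and 1.37 in the panels, and Fas is filled on opposite sides of 0, at 0.58 and -0.76.

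Myeloid cells also express Bcl2a1 and Bid, and some markers of monocytes and macrophages rose in IKK_K171E while others did not. Of 10 such markers measured, 9 had a positive log2 fold change in IKK_K171E over EV. By limma 2 were called higher and 1 lower, against 0.994% and 0.434% of all genes. On 7 both IKK_K171E arrays stood above both EV arrays, and on 1 both stood below. The groups did not overlap for 46.0% of all features in this comparison. Csf1r, the receptor gene of macrophage growth factor, rose by 1.22 (adjusted p = 0.0376) and Lyz2, a lysozyme gene of myeloid cells, by 1.41 (adjusted p = 0.0496), whereas Adgre1, the gene of F4/80, fell by 1.17 (adjusted p = 0.0353). All 3 calls ended with array weights and with all features of the table (adjusted p = 0.0529 to 0.0705). Those of Csf1r and Lyz2 ended with only the 4 arrays compared (0.0921 and 0.108), and that of Lyz2 with a common median (0.0529). All 3 ended without either IKK_K171E array. Those of Csf1r and Lyz2 also ended without either MYD88_L265P array, and that of Adgre1 without either EV array. With arrays left out, Csf1r ran from 0.95 to 1.49, Lyz2 from 0.98 to 1.83 and Adgre1 from -1.26 to -1.07. Cd14, a monocyte surface gene, read 7.20 to 7.36 on all 4 of these arrays. The mean log2 signal over the list was 8.66 and 8.85 in EV, 9.38 and 9.13 in IKK_K171E, and 8.71 and 8.53 in MYD88_L265P. For this mean and for Bid the MYD88_L265P and EV arrays overlapped, and for Bcl2a1 they did not. Adgre1 was the 1 marker of the 10 called in MYD88_L265P against EV (-1.78), where 7.45% of all genes were called lower. In MYD88_L265P all 10 markers lay below IKK_K171E with no overlap of arrays, and 1, Ccr2, was called (-0.87, adjusted p = 0.0226), but not when any of these 4 arrays was left out (0.0579 to 0.194). The MYD88_L265P and IKK_K171E arrays did not overlap for 57.0% of all features, counting both directions. Of all genes 0.903% were called lower in MYD88_L265P than in IKK_K171E. Neutrophil markers had 0 of 10 called by limma in IKK_K171E against EV, with a list mean of 7.09 and 7.16 in EV and 7.21 and 7.25 in IKK_K171E. Of 8 dendritic cell markers, Flt3 (0.75, adjusted p = 0.0292) and Itgax (0.68, adjusted p = 0.0234) rose, while the other 6 were not called and the list median was 0.063. Both calls ended with only the 4 arrays compared and without EV replicate 2, IKK_K171E replicate 1 or either MYD88_L265P array, and that of Flt3 with array weights (adjusted p = 0.0536 to 0.190). The part of these cells in the values of Bcl2a1 and Bid was not tested. Plasma cell markers, of which 3 of 8 rose in MYD88_L265P against EV (9.02% of all genes), had 0 called in IKK_K171E against EV by limma.

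**Figure D4:**
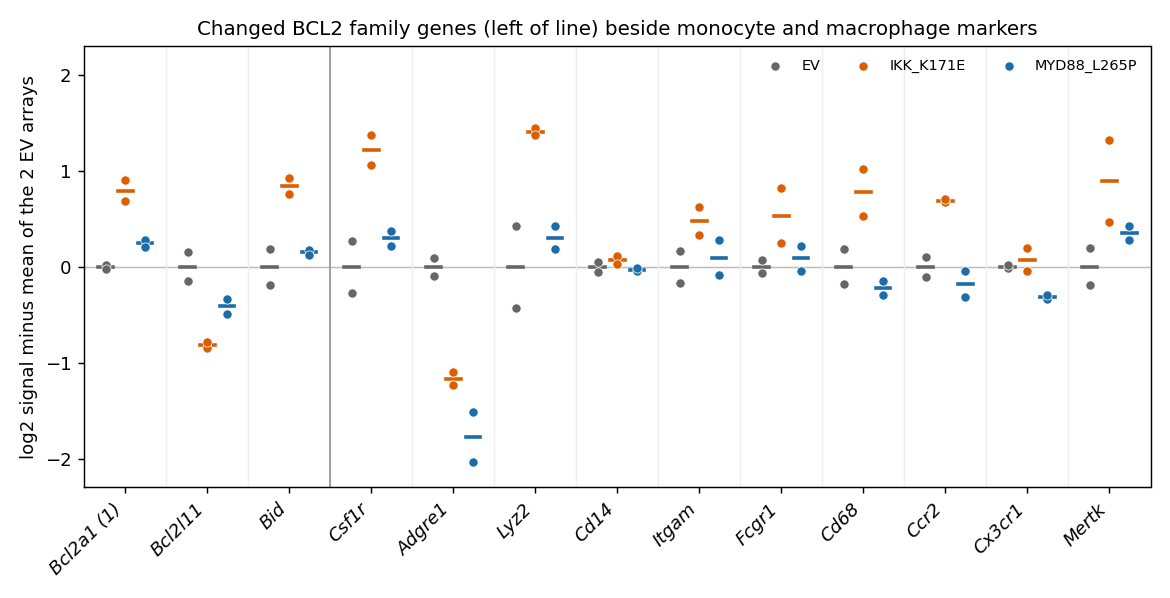
Points are arrays, as log2 signal minus the mean of the 2 EV arrays, for Bcl2a1 (first feature), Bcl2l11 and Bid (left of the line) and 10 monocyte and macrophage markers (right), and short bars are group means. Csf1r and Lyz2 are highest in IKK_K171E like Bcl2a1 and Bid, Adgre1 is below EV in both other groups, and Cd14 stays within 7.20 to 7.36.

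The features whose pattern over the 6 arrays was most like that of the called members were named by Pearson correlation, as a description. For the Bcl2a1 features these were Nlrp1c-ps (r of 0.995 to 0.996), Lmo7 (0.993 and 0.992) and Arrb2 (0.992), which encodes beta-arrestin 2. Lmo7 read 7.26 and 7.10 in EV, 9.17 and 8.85 in IKK_K171E, and 7.92 and 7.48 in MYD88_L265P, the same order of groups as Bcl2a1 with wider steps. For Bid the most alike were Csf1r (0.997), which read 7.66 and 8.20 in EV, 9.30 and 8.99 in IKK_K171E, and 8.30 and 8.15 in MYD88_L265P, and Tet1 (0.990), a DNA demethylase gene. For Bcl2l11 they were features of Ccl25 (0.994) and Zdhhc20 (0.993), with smaller differences between groups: the Ccl25 feature read 8.65 and 8.72 in EV, 8.41 on both IKK_K171E arrays, and 8.53 and 8.56 in MYD88_L265P. The correlations run over 6 arrays in 3 groups and were picked as the highest among all features.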

How the data were processed

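Gene expression was measured on Affymetrix mouse ST 1.0 arrays in 6 samples of sorted B cells, 2 per group. The authors deposited a table of log2 signals, made with oligo and limma, per the submitters' processing notes; the background correction, normalization and summarization, like the genome build, are not given in the sources used here. No count depth exists for arrays, and their number limits the precision. Of 24743 features, 21542 with exactly 1 gene symbol and the 3 Bcl2a1 features with several symbols were fitted, 1522 in all having several symbols and 1679 none. Group means were fitted with limma 3.58.1 in R 4.3.3 (3 residual and 4.17 prior degrees of freedom), with two-sided p-values adjusted by Benjamini-Hochberg over 21545 features per comparison. The procedure was tested on simulated data, but recovery was required only for fold changes larger than those of the members here. The members, gene lists and motifs were chosen with earlier results of these data known. Named were all members, up to 3 called genes of each pathway list with the largest change, and the 2 most alike features of each called member. Motifs were searched with Python 3.11.15 and promoters aligned with Biopython 1.88. Alternatives were the replicate block, 2 normalizations, 2 variance models, other feature sets, only the arrays compared and each array left out; fitting the mean of the Bcl2a1 features was added after seeing the data.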

Additional observations from a re-analysis of the deposited data

How the results depend on the processing

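Among the members, Bcl2a1, Bcl2l11 and Bid kept their direction in IKK_K171E minus EV under every alternative run, and their calls did not. In that comparison 302 features were called in all and 5 among the members, which are counted as features here and below. The counts became 129 and 3 with array weights and 131 and 3 with all features of the table, the 3 being the Bcl2a1 features in both. They became 51 and 0 with only the 4 arrays compared. With the mean of the 3 Bcl2a1 features, an alternative chosen after seeing the data, 3 members were called there and 1 in MYD88_L265P minus IKK_K171E, since 3 features became 1. In MYD88_L265P minus EV 1 member was called with quantile normalization and 1 with array weights, against 0. In MYD88_L265P minus IKK_K171E 4 members were called with quantile normalization and 4 with array weights, against 2. In both settings these were the 3 Bcl2a1 features and Bid, and 381 and 475 features were called in all, against 380. With a common median 0 members were called, and 0 with all features of the table. Only the 4 arrays compared gave 594 features in all. Array weights came out equal for the 2 arrays of each group: 0.87 in EV, 0.79 in IKK_K171E and 1.45 in MYD88_L265P. They therefore weighted whole groups and cannot mark a poor array, and with them only the estimate of the spread changed. The cause of the other changes in number was not tested.

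With the replicate number as a block, IKK_K171E minus EV had 631 features called and the same number of members (5), MYD88_L265P minus EV had 4128 and 1, and MYD88_L265P minus IKK_K171E had 503 and 3. Replicate numbers come from the sample descriptions, and the sample titles number the arrays differently: the first EV array has another title number than the first arrays of the other groups. The block therefore may not join arrays made together. Deviations of arrays with the same description number correlated at 0.105 to 0.211, and with 2 such numbers per group these values do not establish a pairing.

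Leaving out each array in turn gave 0 to 509 features and 0 to 4 members in IKK_K171E minus EV, 191 to 3554 features and 0 to 2 members in MYD88_L265P minus EV, and 14 to 594 features and 0 to 2 members in MYD88_L265P minus IKK_K171E. Where 1 array was left in a group, it was assumed to vary like the others. Leaving out an array of the group not compared gave the same values as only the 4 arrays compared, so these alternatives are 1 result.

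Small differences that were not called changed sign, and the cause was not tested. A common median gave 0.071 for Mcl1 and 0.058 for Bmf in MYD88_L265P minus EV, 0.0032 for Bbc3 in IKK_K171E minus EV, and 0.023 for Bcl2l1 in MYD88_L265P minus IKK_K171E. Quantile normalization gave 0.0036 for Bbc3 and -0.0099 for Bak1 in IKK_K171E minus EV, and -0.029 for Bcl2 in MYD88_L265P minus IKK_K171E. With arrays left out, values in MYD88_L265P minus EV ran from -0.0051 to 0.46 for Bcl2, -0.094 to 0.059 for Mcl1, -0.038 to 0.34 for Bid and -0.083 to 0.023 for Bmf. In IKK_K171E minus EV they ran from -0.076 to 0.39 for Bcl2, -0.27 to 0.35 for Bak1, -0.057 to 0.034 for Bbc3 and -0.19 to 0.11 for Myd88. In MYD88_L265P minus IKK_K171E they ran from -0.038 to 0.18 for Bcl2 and from -0.21 to 0.11 for Bcl2l1. With 2 arrays a group, standard errors of the members were 0.089 to 0.20.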
